A study of Sus scrofa with 2 samples.

Results

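Ductal nuclei were the nuclei of the pancreatic duct epithelium, and 4558 of the 28583 barcodes of the series belonged to them. Single-nucleus RNA sequencing (snRNA-seq) was made from the pancreas of 2 pigs, and the rule below found 2299 ductal nuclei in WT and 2259 in PIGinH11. A barcode was kept when it held 270 to 3700 genes and fewer than 13000 UMIs (unique molecular identifiers, 1 for each captured RNA molecule). It was called ductal when SLC4A4, PKHD1 and SCTR together had at least 5 UMIs and at least 1% of its UMIs, while the acinar genes CHN2, EFEMP1, AGMAT, EXTL1, ADAD1, CDH4 and RBPJL together stayed below 0.6%. The levels of these 10 genes were thus selected on, and they are given only as a description.

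Both pigs were male Bama pigs aged 18 months. Each was fed control diet until 6 months of age, followed by 12 months of a high-fat and high-sucrose diet (HFHSD), in which sucrose made up 37%, pork lard 10% and control diet the remaining 53%. The WT pig carried no transgene, whereas the PIGinH11 pig carried knocked-in GIPRdn, hIAPP and PNPLA3 I148M at the H11 locus and driven by promoters that are specific to beta cells or to liver. A piece of about 0.2 g from the body of the pancreas was used from each pig. Since each group had 1 library, nothing measures the spread between pigs, and WT and PIGinH11 were not compared by any test. Differences between the libraries are therefore given as sizes, with exact 95% intervals that cover counting error only, and genotype, pig and library cannot be told apart.

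The ducts of the pancreas carry the enzymes of the acinar cells to the intestine and add a fluid rich in bicarbonate. Secretin binds its receptor on duct cells and raises cAMP, which opens the chloride channel CFTR at the apical side, while the cotransporter SLC4A4 takes up bicarbonate with sodium at the basolateral side. Duct cells also carry a primary cilium, whose proteins are mutated in polycystic diseases, and they are kept by transcription factors such as SOX9 and ONECUT1.

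The WT library held 55784067 UMIs in 13619 barcodes and the PIGinH11 library 26228811 UMIs in 14964 barcodes. The limits on genes and UMIs left 13189 and 14908 barcodes. Ductal nuclei made up 17.4% of these in WT (95% Clopper–Pearson interval 16.8 to 18.1) and 15.2% in PIGinH11 (14.6 to 15.7). With a stricter limit of 10 UMIs and 2% for the ductal genes, the shares were 15.0% and 9.32%. They held 9205750 and 3583589 UMIs. The median WT ductal nucleus had 3420 UMIs from 1760 genes and the median PIGinH11 ductal nucleus 1084 UMIs from 783 genes. The PIGinH11 ductal nuclei were thus much shallower. This also holds for the acinar nuclei used for comparison, which were chosen by the mirror image of the rule (8559 WT and 8627 PIGinH11 nuclei, medians of 3089 and 1272 UMIs).

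The 3 ductal genes of the rule took a median of 3.30% of the UMIs of a WT ductal nucleus and 2.26% of those of a PIGinH11 ductal nucleus. In the WT library, 47 nuclei were just inside the limit (exactly 5 UMIs, or less than 1.2%, median 1.11%). Just outside it, with few acinar UMIs and either 4 UMIs that made up 1% or more, or 5 UMIs or more that made up 0.8% to under 1%, were 25 (median 0.935%). In the PIGinH11 library, 133 nuclei were just inside (median 1.12%) and 121 just outside (median 0.903%). Nuclei with 4 UMIs of the ductal genes at any share numbered 773 in WT and 324 in PIGinH11. Ductal nuclei without a single UMI of the 7 acinar genes made up 19.3% in WT and 28.5% in PIGinH11. A further 200 WT and 203 PIGinH11 nuclei had the ductal genes together with acinar genes at or above the limit and were left out. Of these, Scrublet marked 92.5% and 80.3% as doublets, compared with 7.79% and 9.92% of the ductal nuclei. The libraries shared 60 barcodes, and 5 of them were ductal nuclei in both.

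The marker genes that were not used by the rule were present. DCDC2, a doublecortin protein of the cilium, had a level of 1298 CPM (UMIs per 1000000 UMIs of the class) in WT and 1041 CPM in PIGinH11 ductal nuclei, against 16.7 and 23.6 CPM in acinar nuclei. SPON1, a secreted matrix protein, had a level of 1785 and 2500 CPM, against 24.5 and 54.7 CPM in acinar nuclei. Both were therefore higher in ductal nuclei of both libraries. With each nucleus thinned to 500 UMIs, which removes the difference in depth, DCDC2 was found in 43.4% (41.3 to 45.4) of WT and 34.1% (32.2 to 36.1) of PIGinH11 ductal nuclei, but in 0.958% and 1.58% of acinar nuclei. Without thinning, these shares were 87.8% and 58.5% in ductal nuclei. The plot of markers shows the same genes beside markers of other cell types.

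**Figure D1:**
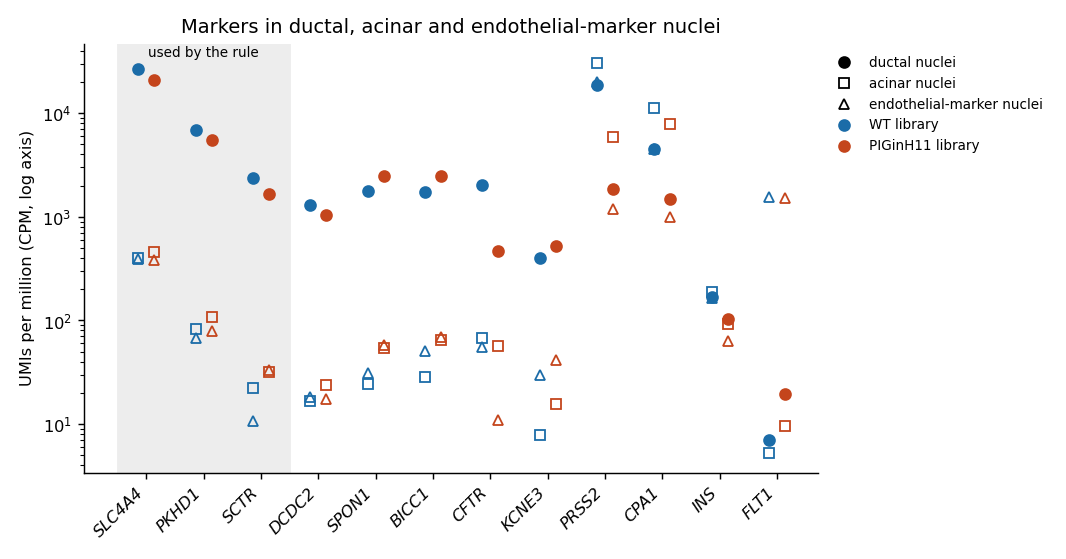
Levels (CPM, log axis) of ductal markers, of the acinar enzymes PRSS2 and CPA1, of INS and of the endothelial marker FLT1. Filled circles are ductal nuclei, squares acinar nuclei and triangles endothelial-marker nuclei (chosen with FLT1 among other genes), with WT in blue and PIGinH11 in red, 1 library each. DCDC2 in ductal nuclei lay at 1298 and 1041 CPM, far above the other nuclei, while PRSS2 and INS in WT ductal nuclei lay near the levels of WT endothelial-marker nuclei.

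RNA that is free in the tissue suspension enters every droplet, and it was measured in 239 WT and 335 PIGinH11 nuclei with endothelial markers (FLT1, PLVAP, VWF, PTPRB and EGFL7, with medians of 3854 and 2257 UMIs), which should not make digestive enzymes or insulin. The 13 enzyme genes of acinar cells summed to 35263 CPM in WT ductal nuclei and to 36777 CPM in WT endothelial-marker nuclei, against 70747 CPM in acinar nuclei. In the PIGinH11 library they summed to 8414 CPM in ductal, 5649 CPM in endothelial-marker and 41414 CPM in acinar nuclei. INS, the insulin gene, had a level of 167 and 104 CPM in ductal nuclei and of 163 and 62.7 CPM in endothelial-marker nuclei. In WT, enzyme and insulin UMIs of ductal nuclei were thus at the background level and are not read as expression. In PIGinH11 they lay above the level of endothelial-marker nuclei, which were deeper, and what the remainder comes from was not tested. Within each library, PRSS2 took a larger part of the UMIs in shallow than in deep ductal nuclei, with 57150 against 14396 CPM in WT and 3327 against 1082 CPM in PIGinH11 (500 to under 1000 UMIs against at least 4000).

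Genes that were higher in ductal than in acinar nuclei were counted among 16951 genes with at least 20 UMIs over both classes in each library, without the 10 genes of the rule. In both libraries, 2071 genes (12.2%) were at least 2-fold higher in ductal nuclei and 1890 (11.1%) were at least 2-fold higher in acinar nuclei. These numbers describe nuclei that were chosen by their markers and do not test the difference between the cell types. Among the genes that the study listed for ductal cells from these same libraries, all 20 of 20 that were not used by the rule were at least 2-fold higher in ductal nuclei, which is not independent evidence. Beyond these, the genes with the highest ratios included SCRN1, a secernin protein, with 382 and 364 CPM in ductal and 4.54 and 8.73 CPM in acinar nuclei. PPARGC1A, a coactivator of mitochondrial genes, had a level of 956 and 954 CPM in ductal and of 16.9 and 22.2 CPM in acinar nuclei, and was thus at the same level in ductal nuclei of both libraries. ROS1, a receptor tyrosine kinase, had a level of 449 and 609 CPM in ductal and of 7.19 and 17.4 CPM in acinar nuclei, and the kinase STK32B 436 and 715 CPM in ductal and 8.17 and 21.7 CPM in acinar nuclei. KCNE3, which assembles with the potassium channel KCNQ1, was 50.6-fold higher in ductal than in acinar nuclei of the WT library and 33.4-fold in the PIGinH11 library.

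PIGinH11 was then compared with WT within ductal nuclei, which asks how the duct epithelium of the transgenic pig differed. Of 11464 genes that reached 20 UMIs in WT and in PIGinH11, 1330 (11.6%) were at least 2-fold higher in PIGinH11 and 209 (1.82%) at least 2-fold lower. The median log2 ratio was 0.16, and relative to this median 1052 genes were higher and 328 lower, which moved the share of higher genes among those past 2-fold from 86.4% to 76.2%. Most of the excess of higher genes lay among sparse genes. Of the 3037 genes with 20 to under 100 WT UMIs, 1074 were higher and 0 lower, since a gene at this WT level that was lower in PIGinH11 fell under the minimum of 20 UMIs in the shallower library. Among the 1902 genes with at least 1000 WT UMIs, 12 were higher and 59 were lower. Of 1776 tested genes that were at least 2-fold higher in ductal than in acinar nuclei, 167 were higher in PIGinH11 and 62 lower. Of the study's ductal list, again chosen on these libraries, 0 of 20 were higher and 2 (CFTR and PDE3A) lower, with a median log2 ratio of −0.31. Relative to the median of all genes, CACHD1 of this list was also past 2-fold lower (−1.10). The plot of ratio against level shows this shape.

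**Figure D2:**
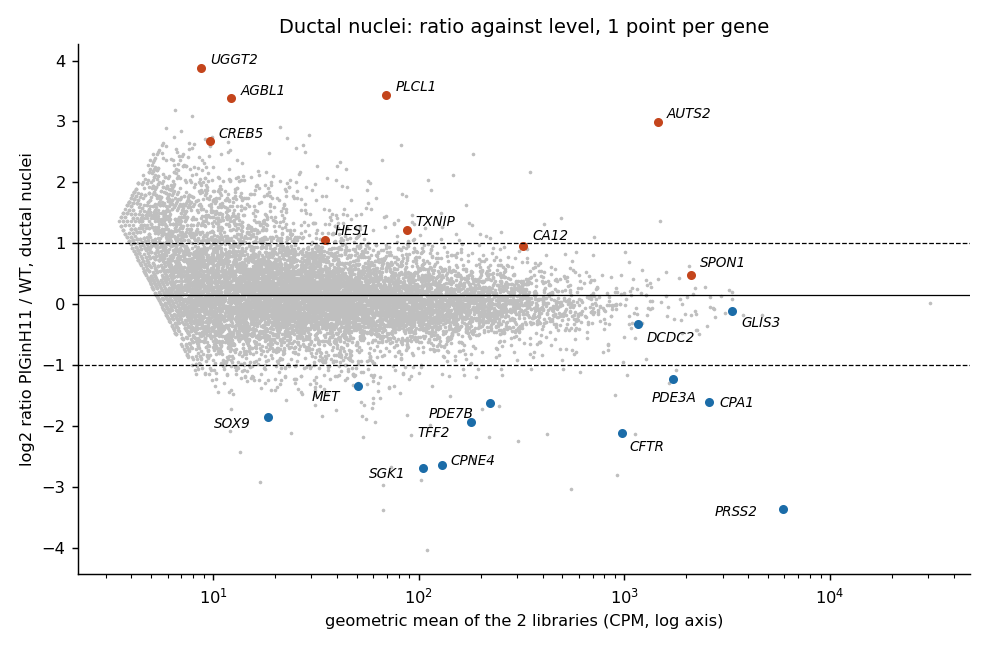
Log2 ratio of PIGinH11 over WT in ductal nuclei against the geometric mean of both levels (CPM, log axis), 1 point for each of 11464 genes. Dashed lines mark 2-fold, the solid line the median of 0.16, and named genes are coloured red when higher and blue when lower. The slanted left edge comes from the minimum of 20 UMIs in each library, AUTS2 and CFTR stand apart among abundant genes, and GLIS3 and DCDC2 lie within 2-fold.

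Of the genes of bicarbonate and chloride secretion, CFTR had the lowest ratio of PIGinH11 over WT, while most others were within 2-fold. Of the 28 listed genes, 1 was used by the rule (SLC4A4), 19 passed the minimum of 20 UMIs, 4 of these were at least 2-fold lower in PIGinH11 and 1 was at least 2-fold higher, against 1.82% and 11.6% over all genes, with a median log2 ratio of −0.08. CFTR (chromosome 18, 28627717 to 28818209, Sscrofa11.1), the apical chloride and bicarbonate channel, had a level of 2025 CPM in WT and 468 CPM in PIGinH11 ductal nuclei, from 18642 and 1678 UMIs. It was thus 4.32-fold lower in PIGinH11 (log2 ratio −2.11, interval −2.19 to −2.04). In acinar nuclei the level of CFTR was 68.3 and 57.2 CPM, and the ratio was −0.26 (−0.37 to −0.14). At 500 UMIs per nucleus, a CFTR UMI was found in 53.7% (51.7 to 55.8) of WT ductal nuclei and in 16.6% (15.1 to 18.2) of PIGinH11 ductal nuclei, and in 4.00% and 2.84% of acinar nuclei. Without thinning, the shares in ductal nuclei were 90.9% and 34.1%. At the same thinned depth, 10.0% of WT ductal nuclei had 3 or more CFTR UMIs, compared with 0.531% of PIGinH11 nuclei.

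The difference in CFTR was present at every depth. Among nuclei with 500 to under 1000 UMIs, the level of CFTR was 1415 CPM (1214 to 1639) in 160 WT nuclei and 328 CPM (288 to 372) in 1033 PIGinH11 nuclei. Among nuclei with at least 4000 UMIs, it was 2133 CPM (2097 to 2170) in 972 WT nuclei and 661 CPM (607 to 718) in 146 PIGinH11 nuclei. Within each library CFTR was higher in deeper nuclei, and the PIGinH11 library was lower than the WT library in all 4 depth bands. PDE3A and PDE7B were likewise lower in PIGinH11 in all 4 bands, and in the shallowest band PDE3A had a level of 1767 CPM (1541 to 2016) in WT and 749 CPM (689 to 814) in PIGinH11.

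**Figure D3:**
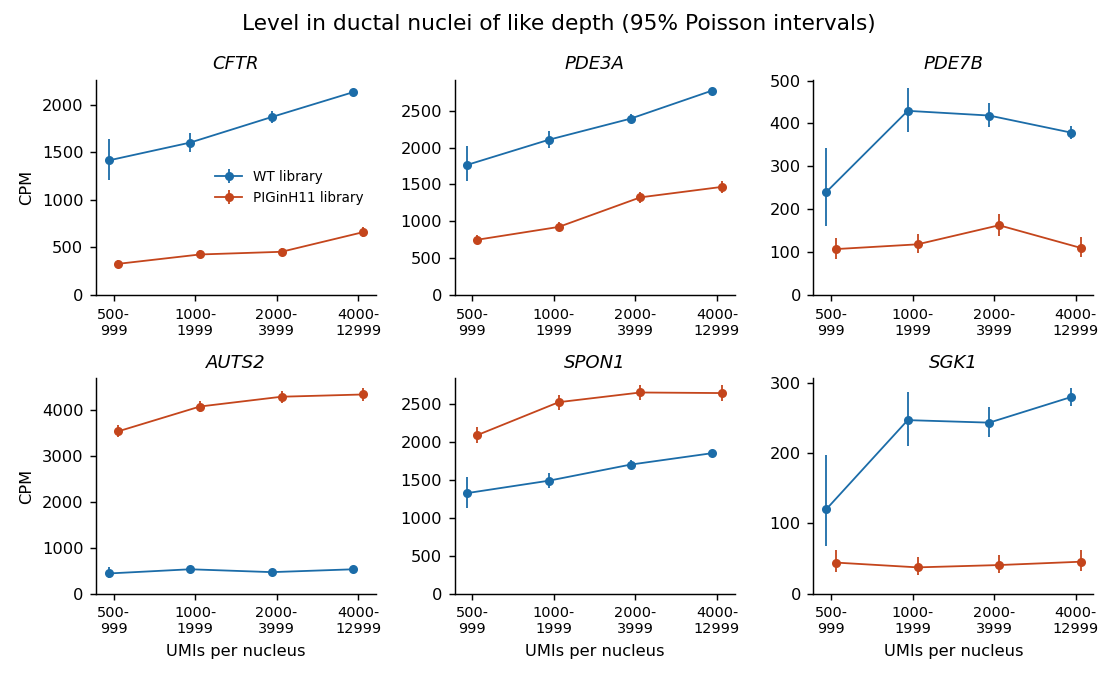
Level (CPM, linear axis from 0) of 6 genes in ductal nuclei grouped by their UMIs, with 95% Poisson intervals, WT in blue and PIGinH11 in red, 1 library each. CFTR, PDE3A, PDE7B and SGK1 were lower in PIGinH11 in all 4 bands, and AUTS2 and SPON1 were higher in all 4.

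CA2, the cytosolic carbonic anhydrase that makes bicarbonate from carbon dioxide, had a level of 32.9 CPM in WT and 12.8 CPM in PIGinH11 ductal nuclei (log2 ratio −1.36, −1.84 to −0.91). In acinar nuclei CA2 was at 25.6 and 24.9 CPM, so it was not particular to ductal nuclei. ATP1B1, the beta subunit of the sodium pump, had a level of 382 and 170 CPM (−1.16, −1.29 to −1.04), and it was also lower in acinar nuclei (−1.19). KCNK5, a background potassium channel, had a level of 51.9 and 25.7 CPM (−1.02, −1.35 to −0.69), close to 2-fold, and was at −0.98 with the stricter limit of 10 UMIs and 2% for ductal genes. The inward rectifiers KCNJ15 and KCNJ16 were lower by less than 2-fold, with 84.5 and 46.6 CPM and with 204 and 120 CPM, though KCNJ15 was past 2-fold relative to the median of all genes (−1.02). The level was higher in WT for each of these genes.

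Other members of the secretion list had like levels in both libraries or were higher in PIGinH11. KCNQ1, the basolateral potassium channel, had a level of 1314 and 1362 CPM. KCNE3 had a level of 398 and 526 CPM (log2 ratio 0.40, 0.32 to 0.48), and CA12, a membrane carbonic anhydrase, 232 and 450 CPM (0.96, 0.86 to 1.05), just under 2-fold. SLC9A4, a sodium–proton exchanger, was the gene past 2-fold on the higher side (1.44), with 5.54 and 15.1 CPM from 51 and 54 UMIs. Its level was higher in acinar nuclei, with 9.62 and 26.6 CPM, and the ratio there was 1.47. SLC4A4, which was selected on, had a level of 26452 and 20810 CPM. The apical exchangers SLC26A3 and SLC26A6, the chloride channel ANO1 and the water channel AQP1 had too few UMIs to be compared. AQP5 had 0 UMIs in the ductal nuclei of both libraries, which allows there up to 0.326 CPM in WT and 0.837 CPM in PIGinH11.

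Among genes of cAMP signalling, the phosphodiesterases PDE3A and PDE7B, which degrade cAMP, were lower in PIGinH11. PDE4D had like levels in both libraries, and PDE4B was higher but from few UMIs. Of the 16 listed genes, 15 were found, 13 passed the minimum, 2 were at least 2-fold lower and 3 at least 2-fold higher in PIGinH11 (median log2 ratio −0.11), against 1.82% lower and 11.6% higher over all genes. The 3 higher genes (CREB5, PDE4B and ADORA2B) had under 100 WT ductal UMIs, where 35.4% of all genes were higher. PDE3A had a level of 2624 CPM in WT and 1127 CPM in PIGinH11 ductal nuclei (log2 ratio −1.22, −1.27 to −1.17), and PDE7B 390 and 126 CPM (−1.62, −1.77 to −1.48). In acinar nuclei PDE7B was low, and its ratio was 0.96 (0.77 to 1.15), from a level of 15.0 and 29.0 CPM. In endothelial-marker nuclei, PDE7B had a level of 805 and 903 CPM. PDE4D had a level of 384 and 407 CPM in ductal nuclei, and was higher in acinar nuclei with 2018 and 2033 CPM. PDE4B was on the higher side, but with 7.71 and 20.9 CPM from 71 and 75 UMIs. CREB5, a transcription factor of the cAMP response, had a level of 3.80 and 24.3 CPM (2.67, 2.09 to 3.28). Both were higher in endothelial-marker nuclei, where PDE4B had a level of 120 and 181 CPM and CREB5 of 84.2 and 108 CPM. GRK3, a kinase that desensitizes receptors, had a level of 1087 and 643 CPM (−0.76, −0.82 to −0.69), under 2-fold. The secretin receptor gene SCTR, which was selected on, had a level of 2366 and 1656 CPM. PRKACB, a catalytic subunit of protein kinase A, had a level of 108 and 189 CPM (0.80, 0.66 to 0.94).

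**Figure D4:**
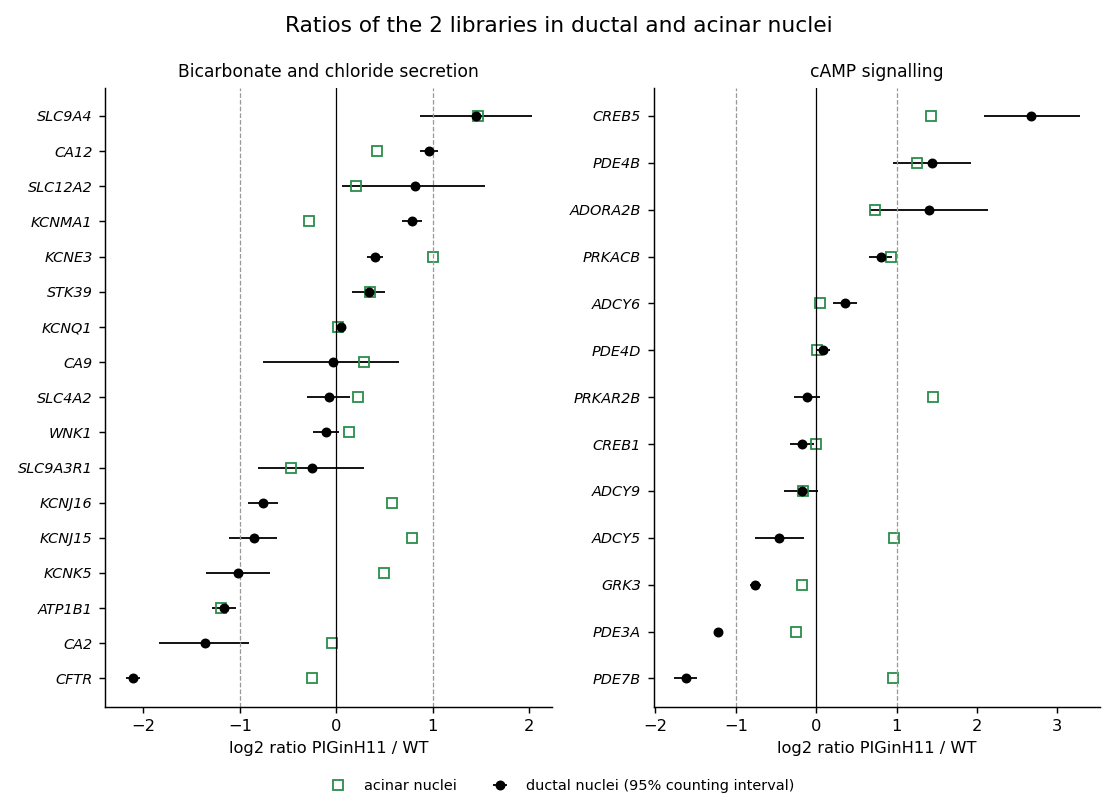
Log2 ratio of PIGinH11 over WT for tested genes of bicarbonate and chloride secretion (left) and cAMP signalling (right), 1 library per group. Black points with bars are ductal nuclei with 95% counting intervals, green squares acinar nuclei, and dashed lines mark 2-fold. CFTR (−2.11) and PDE7B (−1.62) were the lowest of their lists in ductal nuclei, whereas their acinar ratios were −0.26 and 0.96.

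Cilium and polycystic disease genes did not reach 2-fold in ductal nuclei. Of the 21 listed genes, 1 was used by the rule (PKHD1, the fibrocystin gene, with 6909 and 5473 CPM) and the other 20 passed the minimum, and 0 of these 20 were past 2-fold in either direction, against 11.6% and 1.82% over all genes. All 20 had over 100 WT ductal UMIs, a range in which 3.74% (100 to under 1000 UMIs) and 0.631% (1000 or more) of all genes were higher. Their median log2 ratio was 0.21, near the 0.16 of all genes, and they ranged from −0.71 for TMEM67 to 0.98 for PKD1. BICC1, an RNA-binding protein whose loss causes cysts, had a level of 1745 and 2460 CPM, and EFHC2, an EF-hand protein of ciliary microtubules, 1212 and 1340 CPM. PKD2, a cation channel of the cilium, had a level of 138 and 153 CPM, and KIF3A, the motor of ciliary transport, 234 and 256 CPM. In ductal over acinar nuclei, 11 of 20 were at least 2-fold higher in both libraries, against 12.2% over all genes tested for this. In acinar nuclei 2 of 20 were at least 2-fold higher in PIGinH11 (BICC1 and NPHP4), below the 16.7% over all genes tested there.

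Of 23 transcription factors of duct cells, 20 were tested, 2 were higher and 1 lower, which is near the 11.6% and 1.82% over all genes, and the median log2 ratio was −0.14. GLIS3, whose loss causes neonatal diabetes and cystic kidneys, had a level of 3472 and 3214 CPM, and MEIS2 1375 and 1302 CPM. YAP1, the effector of the Hippo pathway, had a level of 666 and 509 CPM, and TCF7L2, of the Wnt pathway, 909 CPM in both libraries. ONECUT1, which acts early in duct development, had a level of 1045 and 661 CPM (−0.66, −0.73 to −0.60). SOX9, the classical factor of ductal progenitors, was the one past 2-fold on the lower side, with 35.2 and 9.77 CPM (−1.85, −2.40 to −1.34) from 324 and 35 UMIs. It was likewise lower in acinar nuclei, at 1.92 and 0.657 CPM. NKX6-1 had a level of 51.5 and 31.3 CPM and PROX1 326 and 184 CPM, both by less than 2-fold. KLF5, a zinc finger factor of epithelia, had a level of 25.0 and 13.1 CPM (−0.93), and was past 2-fold relative to the median of all genes (−1.09). HES1, the target of Notch signalling, was higher in PIGinH11 with 24.3 and 50.5 CPM (1.05, 0.76 to 1.34), but was at 5.81 and 3.74 CPM in acinar nuclei. In endothelial-marker nuclei it was at 57.5 and 45.1 CPM, above the ductal level in WT. Relative to the median of all genes, HES1 was no longer past 2-fold (0.90). ONECUT2 was on the higher side from 25 and 26 UMIs.

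**Figure D5:**
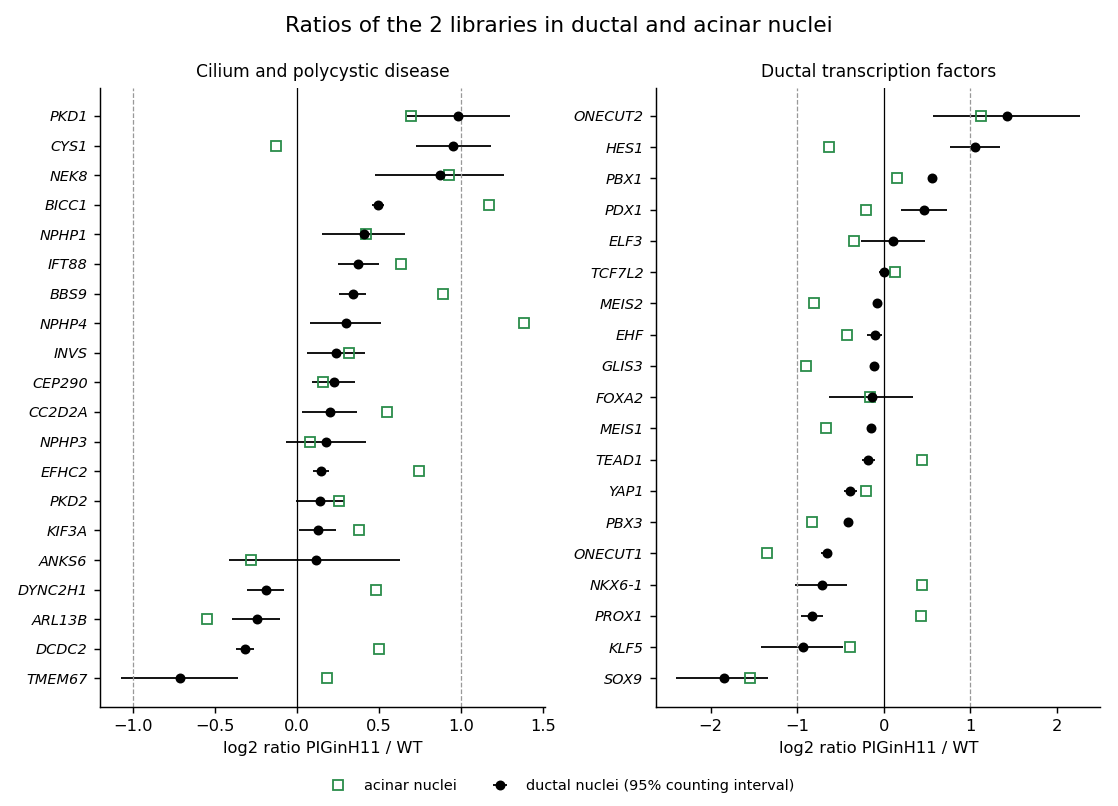
Log2 ratio of PIGinH11 over WT for tested cilium and polycystic disease genes (left) and ductal transcription factors (right), 1 library per group, with symbols as in the plot of secretion genes. All 20 cilium genes lay between −0.71 and 0.98 in ductal nuclei, and SOX9 (−1.85) was the only transcription factor below −1.

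Genes of growth factor and Notch signalling (receptors, ligands and targets) were tested for 11 of 15, of which 1 was lower and 0 were higher (median log2 ratio −0.14), against 1.82% and 11.6% over all genes. ERBB4, a receptor of neuregulins, had a level of 1663 and 1613 CPM, FGFR2 770 and 877 CPM and NOTCH2 919 and 806 CPM. MET, the receptor of hepatocyte growth factor, had a level of 80.8 and 31.8 CPM (−1.35, −1.64 to −1.06), while in acinar nuclei it was at 8.24 and 4.14 CPM. Of the 16 listed genes of epithelial structure, 11 were tested, 2 were higher and 0 lower, with a median of −0.01, where 11.6% and 1.82% of all genes were so. KRT7, the keratin of simple ducts, had a level of 64.7 and 135 CPM (1.06, 0.88 to 1.24), and was past 2-fold by CPM but not relative to the median of all genes (0.90). Of the other keratins of the list, KRT8 had a level of 84.6 and 43.5 CPM (−0.96, and −1.12 relative to the median) and KRT18 37.6 and 37.4 CPM. After free RNA was subtracted, which takes off too much for some genes, KRT7 was at 0.62 and KRT18 at 0.90. The cell junction genes CDH1 and CLDN10 had levels of 466 and 330 CPM and of 361 and 264 CPM. CLDN4, a further junction gene, had a level of 16.8 and 8.93 CPM (−0.91), and was past 2-fold lower relative to the median (−1.07). The integrin gene ITGB6 was on the higher side, from 28 and 34 UMIs.

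Mucus and trefoil genes were scarce in ductal nuclei, and 4 of 15 could be tested, of which 1 was lower, with a median log2 ratio of −0.62 (1.82% of all genes were lower). TFF2, a trefoil peptide of mucus-secreting cells, had a level of 352 and 92.1 CPM in ductal nuclei, 539 and 204 CPM in acinar nuclei and 342 and 44.0 CPM in endothelial-marker nuclei. Thus it was lower in ductal than in acinar nuclei of both libraries. In the WT library it was at the background level, while in the PIGinH11 library it lay above the level of endothelial-marker nuclei. Its log2 ratio was −1.93, and −1.17 after free RNA was subtracted. The study described a small ductal cluster with high TFF2, and higher SLC4A4 and SCTR in its main ductal cluster. The rule selects on SLC4A4 and SCTR and the levels are sums over all ductal nuclei, so that cluster was not tested here. In ductal nuclei TFF3 had 0 UMIs in both libraries, which allows there up to 0.326 CPM in WT and 0.837 CPM in PIGinH11. TFF1, MUC6, MUC13 and AGR2 had at most 18 UMIs in the ductal nuclei of either library. SPP1, osteopontin, had a level of 47.9 and 26.0 CPM, and CLU, clusterin, 60.3 and 97.4 CPM. In ductal over acinar nuclei, SPP1 was 7.87-fold higher in WT and 15.8-fold in PIGinH11, and CLU 8.85-fold and 8.53-fold.

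Genes of the unfolded protein response and TXNIP were compared next, since the study examined ER stress and TXNIP. In ductal nuclei 12 of 13 were tested, 2 were higher and 3 lower, against 11.6% and 1.82% over all genes, with a median log2 ratio of −0.11. TXNIP, which binds thioredoxin and is induced by glucose, had a level of 57.0 CPM in WT and 133 CPM in PIGinH11 ductal nuclei (log2 ratio 1.23, 1.04 to 1.41), and 381 and 837 CPM in acinar nuclei (1.13, 1.10 to 1.17). In endothelial-marker nuclei TXNIP had a level of 245 and 306 CPM. The level in ductal nuclei was therefore the lowest of the 3 classes, and the part of free RNA in its ratio was not tested. XBP1, a transcription factor of the response, had a level of 72.3 and 32.1 CPM (−1.17, but −0.99 after thinning). In endothelial-marker nuclei it had a level of 61.8 and 52.8 CPM. ATF5 had a level of 17.5 and 6.42 CPM, against 16.0 and 2.20 CPM there, so that both were near that level in WT. The chaperone HSPA5 had a level of 15.2 and 9.21 CPM (−0.72, but −1.41 with 10 UMIs and 2% for ductal genes), and ATF4 72.0 and 68.1 CPM. In endothelial-marker nuclei HSPA5 had a level of 34.1 and 8.80 CPM, above its ductal level in WT and near it in PIGinH11. ATF4 had 77.8 and 89.1 CPM there, above its ductal level in both libraries. SSR4, a subunit of the translocon-associated complex, had a level of 31.5 and 5.86 CPM, near the 35.2 and 5.50 CPM of endothelial-marker nuclei. ATF3 was on the higher side, from 35 and 30 UMIs, but was not past 2-fold relative to the median of all genes (0.98) or as a mean over nuclei (0.79).

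Heat shock and immediate early genes were tested for 6 of 11, with 1 higher and 2 lower and a median log2 ratio of −0.63, against 11.6% and 1.82% over all genes. In acinar nuclei 0 of 9 were higher and 7 lower, with a median of −1.84, where 16.7% of 15819 tested genes were higher and 2.03% lower. JUN had a level of 24.3 and 54.4 CPM in ductal nuclei but of 258 and 94.0 CPM in acinar nuclei, and its 77.8 and 64.9 CPM in endothelial-marker nuclei also lay above the ductal level. EGR1 had a level of 309 and 185 CPM in ductal nuclei and of 150 and 18.3 CPM in acinar nuclei. HSP90AA1 had a level of 1056 and 1249 CPM. The inducible HSP70.2 had a level of 76.3 and 3.35 CPM in ductal nuclei, from 702 and 12 UMIs, against 846 and 11.4 CPM in acinar nuclei and 433 and 45.1 CPM in endothelial-marker nuclei. Its ductal level lay below that of endothelial-marker nuclei in both libraries. HSPA8 and HSPB1 were lower, with 33.1 and 14.0 CPM and with 15.2 and 6.42 CPM, all below the levels in endothelial-marker nuclei of the same library (84.2 and 19.8 CPM for HSPA8, 69.3 and 42.9 CPM for HSPB1).

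Inflammation and injury genes were tested for 8 of 13, with 1 higher and 1 lower and a median log2 ratio of −0.25, and over all genes 11.6% were higher and 1.82% lower. C3, the central complement component, had a level of 71.6 and 32.4 CPM in ductal nuclei (−1.15, −1.44 to −0.86, but −0.98 as a mean over nuclei), and was at 3.16 and 4.20 CPM in acinar nuclei. TNFAIP8 had a level of 6.73 and 25.4 CPM in ductal nuclei and of 14.0 and 196 CPM in acinar nuclei. IL18, an epithelial cytokine, had a level of 60.7 and 58.3 CPM and MMP7, matrilysin, 42.9 and 32.9 CPM. The chemokine genes CXCL8 and CCL2 had at most 4 UMIs in the ductal nuclei of either library.

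Among abundant genes of ductal nuclei, AUTS2 differed most in the direction of PIGinH11. AUTS2 (chromosome 3, 13565439 to 14794365), a long gene that encodes a regulator of transcription, had a level of 515 CPM in WT and 4093 CPM in PIGinH11 ductal nuclei, from 4744 and 14667 UMIs, and was 7.94-fold higher (log2 ratio 2.99, 2.94 to 3.04). In acinar nuclei its level was 124 and 213 CPM (0.78, 0.72 to 0.85), and in endothelial-marker nuclei 190 and 400 CPM. The ductal level was highest in PIGinH11, and the acinar levels of both libraries lay below both ductal levels. At 500 UMIs per nucleus, AUTS2 was found in 17.5% (16.0 to 19.1) of WT and in 80.8% (79.1 to 82.4) of PIGinH11 ductal nuclei, compared with 5.89% and 11.2% of acinar nuclei. Without thinning, the shares in ductal nuclei were 49.4% and 91.8%. At this depth, 3 or more AUTS2 UMIs were found in 31.5% of PIGinH11 but in 1.70% of WT ductal nuclei, so the difference was spread over most nuclei. In the shallowest nuclei (500 to under 1000 UMIs), the level of AUTS2 was 440 CPM (331 to 572) in WT and 3543 CPM (3410 to 3681) in PIGinH11.

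The other genes with the highest ratios were sparser. PLCL1, an inactive relative of phospholipase C, had a level of 21.2 CPM in WT and 229 CPM in PIGinH11 ductal nuclei (3.43, 3.21 to 3.67), with 56.5 and 86.7 CPM in acinar nuclei and 500 and 300 CPM in endothelial-marker nuclei. Its thinned share of ductal nuclei was 0.913% (0.566 to 1.39) and 8.68% (7.55 to 9.91), and its unthinned share 4.31% and 17.4%. AGBL1, a carboxypeptidase that removes glutamate from tubulin, had a level of 3.80 and 39.6 CPM (3.38, 2.84 to 3.96), against 11.0 and 14.8 CPM in acinar nuclei. UGGT2, a glucosyltransferase of glycoprotein folding, had a level of 2.28 and 33.5 CPM, and the same direction in acinar nuclei (1.74). PLCL1 and AGBL1 were below the acinar level in the WT library and above it in the PIGinH11 library.

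At the other end, the lowest ratios included genes of 2 kinds. SGK1, a kinase that regulates ion channels and sodium transport, had a level of 267 CPM in WT and 41.6 CPM in PIGinH11 ductal nuclei, from 2456 and 149 UMIs (−2.68, −2.93 to −2.44). CPNE4, a calcium-binding copine, had a level of 323 and 51.9 CPM (−2.64, −2.86 to −2.42). In acinar nuclei SGK1 was at 8.90 and 13.4 CPM and CPNE4 at 10.8 and 22.3 CPM, so that the ductal level exceeded the acinar level less in PIGinH11 than in WT. The acinar ratios were 0.59 (0.32 to 0.85) for SGK1 and 1.05 (0.83 to 1.27) for CPNE4. At 500 UMIs per nucleus, SGK1 was found in 10.0% (8.85 to 11.3) and 2.08% (1.53 to 2.76) of ductal nuclei, and CPNE4 in 13.0% (11.7 to 14.5) and 3.28% (2.58 to 4.10). Without thinning, SGK1 was found in 42.9% and 5.40%, and CPNE4 in 38.7% and 6.29%. DIO1, a deiodinase of thyroid hormone, was of neither kind. Its level was 54.7 and 4.19 CPM in ductal and 47.1 and 1.97 CPM in acinar nuclei, but 6.39 and 1.10 CPM in endothelial-marker nuclei.

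PRSS2, CELA2A, KLK1 and MT1X were of the second kind, with levels in ductal nuclei that were close to those of endothelial-marker nuclei in the WT library. PRSS2, a trypsinogen gene, had a level of 18921 and 1850 CPM in ductal nuclei, 19822 and 1188 CPM in endothelial-marker nuclei and 30247 and 5890 CPM in acinar nuclei. KLK1, a kallikrein, had a level of 188 and 24.0 CPM in ductal and of 202 and 23.1 CPM in endothelial-marker nuclei. MT1X, a metallothionein, had a level of 443 and 75.9 CPM in ductal and of 390 and 46.2 CPM in endothelial-marker nuclei. Of 12 tested enzyme genes, 7 were at least 2-fold lower in PIGinH11 ductal nuclei, against 1.82% over all genes, with a median log2 ratio of −1.39. The 7 acinar genes of the rule summed to 704 and 1189 CPM in ductal nuclei, which were selected to have few of them, and to 980 and 1284 CPM in endothelial-marker nuclei.

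Markers of other cell types were low in ductal nuclei. The 5 endothelial markers summed to 38.1 CPM in WT and 103 CPM in PIGinH11 ductal nuclei, against 4854 and 5074 CPM in endothelial-marker nuclei, which were chosen by them. All 5 of 5 were at least 2-fold higher in PIGinH11 ductal nuclei, led by VWF with 9.78 and 34.3 CPM, and 3 of 5 were so in acinar nuclei, against 11.6% and 16.7% over all genes. All 5 had under 100 WT ductal UMIs, and of all genes at 20 to under 100 WT UMIs 35.4% were higher. After thinning, PLVAP (0.86) and EGFL7 (0.80) were not past 2-fold. Stellate markers summed to 28.6 and 70.9 CPM, nearly all of it PRKG1, and 1 of 1 tested was higher. Macrophage markers summed to 16.9 and 22.6 CPM, Schwann markers to 3.69 and 9.77 CPM (1 of 1 tested, SCN7A, was higher at 1.11, but at −0.85 with 10 UMIs and 2% for ductal genes) and adipocyte markers to 1.63 and 3.91 CPM. Endocrine markers summed to 196 and 147 CPM, with PPY as the 1 of 4 tested that was higher. Their part in the ratios of CREB5, PDE4B, PLCL1, TNFAIP8, HES1 and JUN, which had higher levels in endothelial-marker than in WT ductal nuclei, was not tested.

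Of the 61 ribosomal protein genes, 58 were tested, 22 were at least 2-fold lower in PIGinH11 ductal nuclei and 1 was higher, against 1.82% and 11.6% over all genes. Their median log2 ratio was −0.91, and they summed to 4214 and 2302 CPM. In endothelial-marker nuclei they summed to 5966 and 2895 CPM, above the ductal level in both libraries. Mitochondrial genes summed to 795 and 311 CPM in ductal nuclei, and 6 of 10 tested were lower, against the same 1.82%. In acinar nuclei, 11 of 59 ribosomal protein genes and 9 of 12 mitochondrial genes were likewise at least 2-fold lower, against 2.03% over all genes. The part of cytoplasmic RNA carried over with the nuclei was not tested.

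The ductal nuclei were also compared among themselves within each library. The spread of a gene was taken as its variance over thinned nuclei, less the mean that counting gives, divided by the squared mean. Over 3923 genes with a thinned mean of at least 0.02 UMIs in both libraries, 881 had a spread of at least 1 in both, and the median of the smaller spread was 0.422. The genes with the largest spread were sparse. TMEM117 had a spread of 17.1 and 11.7 and was found in 2.48% and 2.57% of nuclei, and COL4A3, a chain of basement membrane collagen, had a spread of 11.5 and 9.46 and was found in 3.09% and 2.66%. With a minimum of 0.1 UMIs, which was chosen after the values were seen, 27 of 845 genes had a spread of at least 1. ADAMTS18, a secreted metalloprotease, then led with 2.74 and 2.28 and was found in 20.1% and 19.8% of nuclei. SLIT2, a guidance ligand, had a spread of 1.73 and 2.76 and was found in 23.5% and 13.9%.

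A split of the ductal nuclei by PDE7B, made after its values were seen, separated none of the genes compared by 2-fold in WT. At 500 UMIs, 317 WT nuclei had a PDE7B UMI and 1982 did not. The 1090 genes compared had a symbol, at least 200 UMIs and a minimum number of UMIs in the nuclei with PDE7B. This last minimum can leave out genes that were much lower in the nuclei with PDE7B, so such genes were not tested. Of the 1090 genes, 0 differed by 2-fold between the nuclei with and without PDE7B. Their log2 ratios ranged from −0.90 for SESN3 to 0.82 for PTPRG, a receptor phosphatase. In the PIGinH11 library, with 106 and 2153 nuclei, PTPRG had a ratio of 1.14 (0.55 to 1.69) and SESN3 of −0.23 (−1.20 to 0.60). CFTR had 94.6 UMIs per 100 WT nuclei with PDE7B and 92.3 per 100 without it, and so was at like levels in both.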

How the data were processed

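The deposited matrices hold raw UMI counts per gene and barcode, which the authors made with Cell Ranger (v3.1.0 by the submitters' processing notes, which also name Seurat v3.1.1, and v5.0.0 by the matrix headers) from reads aligned to Sscrofa11.1. The annotation release is not given in the sources used here. Of 31908 genes, 15410 carried no symbol in the files, of which a reference table supplied 851. Gene positions are RefSeq spans on Sscrofa11.1, matched by symbol.

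The rule for ductal nuclei was applied to each library (1 library per group). The members and the 19 gene lists were chosen with earlier results of these data known. UMIs were summed over ductal nuclei, divided by their total and scaled to 1000000 (CPM). Genes that reached 20 UMIs in WT and in PIGinH11 ductal nuclei were given a log2 ratio (PIGinH11 over WT), and were counted when past 2-fold. Intervals (95%) were Clopper–Pearson for shares, Poisson for CPM and conditional binomial for ratios, and cover counting error only. A count of 0 is given with the level of 3 counts. Acinar nuclei had the 7 acinar genes at 5 UMIs and 1% or more and the 3 ductal genes below 0.6%. Endothelial-marker nuclei, defined after the data were seen, had the 5 endothelial genes at 3 UMIs and 0.2% or more and both other sums below 0.6%. For shares and spread, nuclei were thinned to 500 UMIs, which left out none of the ductal nuclei. Doublets were not removed, but Scrublet (scanpy v1.11.5) was run on each library and marked a top fraction of its scores, set to 0.8% per 1000 barcodes. The steps were tested on simulated data. scipy v1.17.1 and numpy v2.4.6 were used.

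Genes named are those of the lists, the 10 highest and 10 lowest ratios among genes with a symbol, at least 50 UMIs together and 10 in each library, the 15 highest ductal over acinar by the smaller library value with at least 50 ductal UMIs each, and the 10 with the largest smaller spread. The split by PDE7B and the genes with a spread over a mean of 0.1 were added. GNAS, MUC4, MUC20, MUC5AC, FCGBP and KRT19 were not analysed here, since no gene row carried these symbols. Some genes of the lists are counted but not reported here by name. A planned description of promoter motifs was not run. Alternatives were other limits of the rule, doublets removed, other scalings, means over nuclei, thinning, other minimums and subtraction of free RNA. That subtraction took a part of the mean acinar nucleus off each ductal nucleus, with negative sums set to 0. The part was set by the enzyme UMIs of ductal nuclei, at 53.9% of an acinar nucleus in WT and 18.3% in PIGinH11. Barcodes shared by the libraries and a minimum on the mean CPM were added after seeing the data.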

Additional observations from a re-analysis of the deposited data

Results flagged for a closer look

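For 7 of the named genes that were past 2-fold in ductal nuclei, the log2 ratio of PIGinH11 over WT had an interval wholly on one side of 0 in ductal nuclei and wholly on the other side in acinar nuclei. This difference between the 2 cell types was not tested, since each group had 1 library. PDE7B, a phosphodiesterase, was at −1.62 in ductal and 0.96 in acinar nuclei. SGK1 was at −2.68 and 0.59, and CPNE4 at −2.64 and 1.05. These 3 genes had ductal levels far above the acinar levels in WT. KCNK5 was at −1.02 in ductal and 0.49 (0.03 to 0.95) in acinar nuclei, where it had 4.53 CPM or less. The median acinar log2 ratio of all genes, 0.22, lay within that interval. The ductal ratio of KCNK5 was under 2-fold with 10 UMIs and 2% (−0.98) and without doublets (−0.998). On the opposite side, the Notch target HES1 was at 1.05 in ductal and −0.63 in acinar nuclei. The immediate early genes JUN and ATF3 were at 1.16 and −1.46, and at 1.14 and −1.41.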

How the results depend on the processing

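No paired analysis was possible because each group had 1 library, and for the same reason no library could be left out. The share of ductal nuclei (17.4% in WT, 15.2% in PIGinH11) was 16.9% in PIGinH11 with 3 UMIs and 0.5% of ductal genes, 15.0% and 9.32% with 10 UMIs and 2%, 18.9% and 16.5% without an acinar limit, and 16.4% and 12.9% with an acinar limit of 0.3%. The number of higher genes (1330) depended on the minimum, with 8304 without one, 3402 with 5 UMIs, 556 with 50 UMIs and 632 with a mean of 10 CPM, and was 270 after thinning and 801 with 10 UMIs and 2%. The number of lower genes (209) was 328 relative to the median of all genes, 427 with 5 UMIs and 1029 without a minimum. The number of genes higher in ductal than in acinar nuclei (2071) was 1273 after thinning. The genes with a spread of at least 1 (881) numbered 401 at 300 UMIs and 27 with a mean of 0.1. SCN7A, a Schwann marker at 1.11, reversed to −0.85 with 10 UMIs and 2%. CFTR ranged from −2.58 to −2.03 over the settings, AUTS2 from 2.71 to 3.09, PDE3A from −1.67 to −1.11, PDE7B from −2.12 to −1.59, SGK1 from −3.21 to −2.44 and CPNE4 from −3.20 to −2.17. HES1 was 0.83 after thinning and 0.76 after subtraction of free RNA, KRT7 was 0.62 and SPON1 and BICC1 0.04 and 0.05 after that subtraction, C3 was −0.98 as a mean over nuclei and XBP1 −0.99 after thinning. ATF3 was also under 2-fold after thinning (0.87), without doublets (0.88) and with an acinar limit of 0.3% (0.97), and ONECUT2 (0.68) and ITGB6 (0.62) were so with 10 UMIs and 2%. Sparse genes moved more in size, with CREB5 (2.67) from 2.03 after thinning to 3.71 after subtraction of free RNA, SLC9A4 (1.44) up to 3.25 after that subtraction, and AGBL1 (3.38) at 4.93, PDE4B (1.44) at 2.06, SOX9 (−1.85) at −2.72 and HSPB1 (−1.24) at −1.97 after thinning. After free RNA was subtracted, KLK1 (−2.97) was −1.68 and PPY (1.74) was 3.95. CELA2A (−3.04) was −4.08, but it is one of the enzyme genes that set the size of the subtraction. Its value is thus a residual of that step and is not read. Of the endothelial markers, EGFL7 was 0.80 and PLVAP 0.86 after thinning. Of the named ratios past 2-fold that could be computed, 73 of 79 remained so without Scrublet doublets, 57 of 69 after thinning and 47 of 53 after subtraction of free RNA. The subtraction of free RNA took off too much for genes such as KCNMA1, at 208 CPM in WT ductal against 4690 CPM in WT acinar nuclei. Its values are therefore not read as corrected levels. That subtraction could be computed for 53 of the 80 ratios past 2-fold, and of 172 named ratios in all it moved 108 beyond their counting intervals. Removal of shared barcodes moved none of them across 2-fold. The minimum on mean CPM, the removal of shared barcodes and the minimum of 0.1 were chosen after seeing the data. The shallower PIGinH11 library limits what can be said of genes with few UMIs.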
